A study of Homo sapiens with 12 samples.

Results

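PMA-driven differentiation of U937 cells was examined with a hairpin RNA against ZXDC switched on. The comparison set 3 arrays titled as PMA treated with doxycycline against 3 arrays titled as vehicle treated with doxycycline, 6 of the 12 arrays of the series. U937, a line from a human histiocytic lymphoma, resembles immature monocytes. All cells carried a TRIPZ-shRNAmir Tet-On cassette, which makes the hairpin against ZXDC1/2 when doxycycline is present, and grew in puromycin. Both groups received 0.5 µg/mL doxycycline every day, for 4 days as the labels state it. After the first 2 days one group was given 100 nM PMA and the other vehicle, 0.1% DMSO, for 3 days. Taken one after the other these durations do not add up to the stated 4 days, and the sources used here do not resolve it. The other 6 arrays came from the same line given PMA or vehicle without doxycycline.

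The labels call the arrays of each group biological replicates 1 to 3. They describe 1 line with 1 hairpin. No array of a line with a non-targeting hairpin was analysed here, so an effect of doxycycline itself and one of the hairpin cannot be told apart. RNA was labelled from the 3' end and read on Affymetrix HG-U133 Plus 2.0 arrays, where each gene is represented by 1 or more probe sets. Values are log2 signals, and 1 unit is a doubling. For each of 19775 genes 1 probe set stood in, the one whose mean signal on the 12 arrays was highest. A gene was called when limma's moderated test, fitted over all 12 arrays, gave an adjusted p under 0.05 after Benjamini-Hochberg adjustment over all genes. "Rose" and "fell" below mean called. With 3 arrays a group the precision is limited, and the p-values measure only the spread between these cultures.

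PMA, a phorbol ester, stands in for diacylglycerol and activates protein kinase C. Through the RAS and ERK kinases this switches on early transcription factors such as EGR and AP-1, after which U937 cells stop dividing, attach to the dish and take on features of macrophages. ZXDC is a zinc finger protein that has been linked to transcription during myeloid differentiation.

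The targeted gene was read first. ZXDC signal was 7.16, 7.25 and 7.44 in vehicle with doxycycline and 7.39, 7.43 and 7.02 in PMA with doxycycline. The arrays without doxycycline gave 8.01, 7.63 and 7.69 in vehicle and 7.96, 7.89 and 7.51 in PMA, so every array with doxycycline lay below every array without. Averaged over both agents the arrays with doxycycline were lower by 0.50 (difference -0.50; exact permutation within agents over 400 relabelings, two-sided p = 0.005, which is the smallest they can give). ZXDC signal stayed above the median of all probe sets on every array. PMA with doxycycline differed from vehicle with doxycycline by -0.0036 (SE, limma's standard error of the difference, 0.16), with an adjusted p of 0.992 by limma. The 2 groups overlapped. Probe sets of ZXDC did not give 1 answer on PMA. Its other probe sets differed by -0.61 (adjusted p = 0.0186) to 0.61 (adjusted p = 0.0635), so the direction depends on the probe set. Of its close relatives, ZXDA fell by 0.76 (SE 0.16, adjusted p = 0.00179), from 5.97, 5.72 and 5.65 to 4.78, 5.0 and 5.29. ZXDB differed by -0.19 (SE 0.20).

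On the first principal component of all 12 arrays, which held 79.7% of the variance, vehicle with doxycycline lay between -51.6 and -47.6 and PMA with doxycycline at 47.1, 56.8 and 59.3. Arrays correlated at 0.991 to 0.995 within vehicle with doxycycline, at 0.987 to 0.996 within PMA with doxycycline and at 0.958 to 0.963 between the groups. Replicate 1 of PMA with doxycycline stood apart from the other two. It lay nearest to vehicle on the first component, lacked most of an interferon response described below, and had the largest gap between the 3' and 5' control probe sets of ACTB, 2.72 against 1.32 and 1.64 log2 units. Replicate 1 of vehicle with doxycycline also had the highest value of its group, 2.40 against 0.71 and 1.07. The groups without doxycycline had the same order, 1.99 against 1.29 and 1.05 in vehicle and 2.39 against 1.12 and 1.01 in PMA. In every group replicate 1 also lay nearest to the other agent on the first component, so these 2 traits were not particular to PMA with doxycycline. Without replicate 1 of all groups the fit called 6998 genes, and 5947 of them were called in the same direction with all arrays. All 7 markers of the myeloid line that were measured (PTPRC, SPI1, CSF2RA, LYZ, CD4, ITGB2 and FCGR2A) lay above the median of all probe sets, 5.21, in both groups. So did 12029 of all 19775 genes. SPI1 was only a little above it, at 5.26 in vehicle with doxycycline and 5.62 in PMA with doxycycline.

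With the hairpin induced, PMA changed 6426 of 19775 genes, 32.5%. Of these 2571 rose, 13% of all genes, and 3855 fell, 19.5%. Rises outnumbered falls among the largest changes only. At least 4 log2 units separated the groups in 62 genes that rose and 7 that fell, at least 2 units in 290 and 261, and at least 1 unit in 928 and 1361. Most changes were small, since 4137 of the called genes moved by less than 1 unit. The median over all genes was -0.01. In bulk RNA fewer cells of a type and less RNA in each cell cannot be told apart, here and in all results below. In 8410 genes, 42.5%, the arrays of the 2 groups did not overlap, and 6300 of the called genes were among them.

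SPP1, the gene of osteopontin, a secreted phosphoprotein of matrix, rose most. Its signal was 3.36, 5.03 and 4.17 in vehicle with doxycycline and 14.30, 14.67 and 14.66 in PMA with doxycycline, a difference of 10.35 (SE 0.37). The highest signals on any array were 14.70 to 14.88, so SPP1 under PMA was close to the top of the scale. ZFP36L1, an RNA-binding protein that hastens decay of AU-rich mRNAs, went from 3.62, 3.99 and 4.02 to 12.44, 12.59 and 12.39 (8.59, SE 0.18). Its other probe sets gave a rise of 4.96 and differences of -0.09 and 0.19, the last from dim signals. MMP1, interstitial collagenase, went from 3.51, 4.62 and 4.91 to 12.33, 12.94 and 13.08 (8.44, SE 0.37). TDO2, which opens the indole ring of tryptophan, was at 3.44, 2.94 and 3.33 in vehicle and at 9.68, 11.03 and 11.21 in PMA, with replicate 1 lowest (7.4, SE 0.40). In each of these 4 genes vehicle lay among dim signals, so the exact size of the rise is not well measured, while the groups were far apart.

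Genes already above the median in vehicle gave better measured rises. EMP1, a membrane protein of the PMP22 family, rose from 5.37, 5.97 and 6.30 to 12.70, 13.21 and 13.21 (7.16, SE 0.27). IER3, an early response gene induced by ERK and NF-kB signalling, was tightest, at 5.38, 5.55 and 5.48 against 12.53, 12.50 and 12.54 (7.05, SE 0.13). RGS1, which shortens signalling from G protein-coupled receptors, rose by 6.47 (SE 0.26). CD52, a glycoprotein of the leukocyte surface, rose by 6.31 (SE 0.38), and PHLDA1, another early response gene, by 6.06 (SE 0.16). SGK1, a kinase controlled by glucocorticoids and growth factors, rose by 5.64 (SE 0.25), and the sulfate transporter gene SLC26A11 by 5.55 (SE 0.22). None of these genes had overlapping groups. Among the remaining large rises were FABP4, which carries fatty acids in the cytoplasm (6.96, SE 0.17), VWF, von Willebrand factor (6.80, SE 0.17), the orphan receptor gene GPR82 (7.06, SE 0.26), the lysophospholipid receptor gene GPR34 (6.67, SE 0.21) and the transporter gene SLC12A8 (6.79, SE 0.35). GDF15, a stress-induced cytokine, was at 4.92, 4.31 and 3.53 against 12.16, 10.31 and 10.33 (6.68, SE 0.61), with replicate 1 highest. That value comes from a probe set whose sequence is shared with other transcripts, and the other GDF15 probe sets differed by 0.53 and 0.85.

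Granule genes were among those with the largest falls. MS4A3, a membrane protein of granulocyte and monocyte progenitors, went from 10.36, 10.41 and 10.53 to 5.48, 4.73 and 4.59 (-5.50, SE 0.31). CTSG, the granule protease cathepsin G, went from 13.84, 13.19 and 13 to 9.04, 8.09 and 8.04 (-4.95, SE 0.28). It remained above the median after PMA. RNASE2, an antiviral granule ribonuclease, went from 12.47, 12.37 and 12.43 to 7.31, 8.36 and 8.49 (-4.37, SE 0.37), with replicate 1 lowest. ELANE, neutrophil elastase, went from 12.29, 12.47 and 12.14 to 7.99, 8.46 and 8.33 (-4.04, SE 0.21), and PRTN3, proteinase 3, fell by 3.84 (SE 0.21). The groups were apart in every one of these genes. Falls of like size in genes with other roles were those of PLAC8 (-4.45, SE 0.33), of BLNK, an adaptor of immune receptor signalling (-4.13, SE 0.27), and of MSRB3, a methionine sulfoxide reductase (-4.03, SE 0.12). LAMP5, a lysosome-associated membrane protein, fell by 3.95 (SE 0.23), DEFB1, a defensin, by 3.95 (SE 0.35), and NEGR1, an adhesion molecule, by 3.91 (SE 0.20). PTPN22, a tyrosine phosphatase of immune signalling, fell by 3.56 (SE 0.21), and E2F8, a repressor of the E2F family, by 3.51 (SE 0.14). The 24 genes with the largest rises and falls had adjusted p-values of at most 1.17e-06 by limma.

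**Figure D1:**
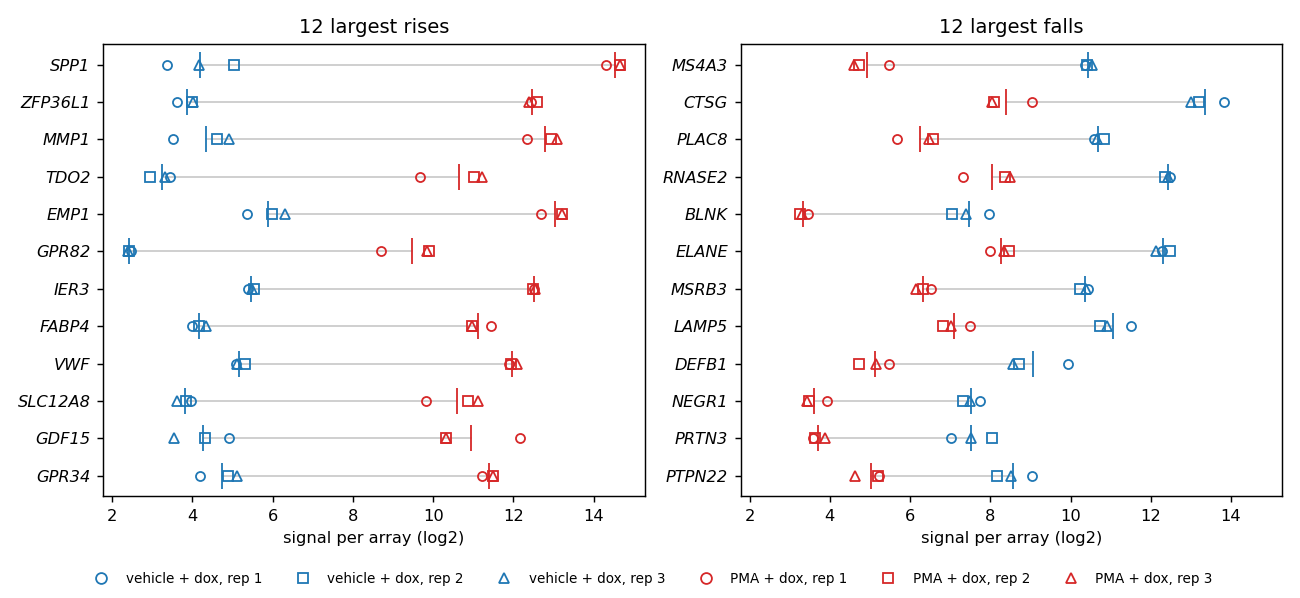
Log2 signal on each of the 6 arrays with doxycycline for the 12 genes with the largest rises (left) and the 12 with the largest falls (right), with vehicle in blue, PMA in red, and a vertical tick at each group mean. In all 24 genes the red and blue points are separate, and the PMA points of replicate 1 lie off the other two in RNASE2, TDO2 and GDF15.

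Signalling genes and the factors downstream of protein kinase C were read after 3 days of PMA, so these data give no order of response. Of 25 genes of protein kinase C and ERK feedback 13 rose and 3 fell, with a median of 0.45. Besides IER3 and PHLDA1, DUSP5, a phosphatase that holds ERK in the nucleus, rose by 5.16 (SE 0.26), from 6.01, 7.07 and 7.24 to 11.92, 12.02 and 11.86. DUSP1, a phosphatase of MAP kinases, rose by 3.56 (SE 0.26). RASGRP2, an exchange factor of the RASGRP family, fell by 1.60 (SE 0.12) and PRKCQ, a protein kinase C isoform, by 1.34 (SE 0.12). Of 17 AP-1 and EGR factors 11 rose and 1 fell, with a median of 1.26. EGR3 rose from 4.25, 3.89 and 4.22 to 8.93, 8.99 and 9.28 (4.95, SE 0.30). ATF3 (4.02, SE 0.14), MAFF (3.57, SE 0.13) and JUN (3.34, SE 0.25) also rose, and BATF, an AP-1 partner of lymphoid and myeloid cells, fell by 0.82 (SE 0.10). All of these are basic leucine zipper factors except EGR3, which has zinc fingers. Of 17 NF-kB genes 9 rose and 3 fell, with a median of 0.62. The survival gene BCL2A1 rose by 3.24 (SE 0.13), CD83, a surface protein of activated antigen-presenting cells, by 3.19 (SE 0.21), and TNFAIP3, which edits ubiquitin chains and ends NF-kB signalling, by 2.20 (SE 0.15). NFKBIZ, a nuclear regulator of the family, rose by 1.38 (SE 0.16). IRAK3, an inhibitor of Toll-like receptor signalling, fell by 1.71 (SE 0.16), and PTX3, a secreted pattern recognition protein, by 0.98 (SE 0.24). With shared-sequence probe sets left out, which also leaves fewer members measured, 8 of the protein kinase C genes and 5 of the NF-kB genes rose.

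Of 24 myeloid transcription factors 12 rose and 3 fell, with a median of 0.40. The orphan nuclear receptor gene NR4A3 went from 4.54, 4.67 and 4.75 to 9.09, 8.65 and 8.75 (4.18, SE 0.21). PRDM1, the repressor Blimp-1, rose by 2.67 (SE 0.22), BCL6, another repressor, by 2.50 (SE 0.29), and MITF, a factor of lysosomal and osteoclast genes, by 2.39 (SE 0.15). BCL6 was at 9.18, 8.84 and 8.79 in vehicle and at 10.76, 11.73 and 11.84 in PMA, where replicate 1 was lowest. SATB1, a chromatin organiser, fell by 1.5 (SE 0.10) and IRF8, a factor of monocyte progenitors, by 1.00 (SE 0.15). SPI1, which encodes the master myeloid factor PU.1, differed by 0.36 (SE 0.14, adjusted p = 0.0643). Read without shared-sequence probe sets, 6 members of the list rose. Of 12 genes known to be repressed by BCL6, 4 rose and 3 fell, with a median of 0.29. Without shared-sequence probe sets 1 rose and 1 fell. With all probe sets CCL2, CDKN1A, CCL7 and PRDM1 rose, and IFITM1, CCND2 and CDKN1B fell. CCND2, cyclin D2, went from 8.61, 9.04 and 9.27 to 7.81, 7.67 and 7.55 (-1.30, SE 0.17). The median difference of these 12 genes was -0.07 on replicate 1 of PMA with doxycycline and 0.41 and 0.47 on the other two.

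Cell division was read from a list of 30 genes of cell cycle and DNA replication, chosen with earlier results of these data known. All 30 fell, against 19.5% of all genes, with a median of -2.10 and a range from -3.52 to -0.99. In all 30 the groups did not overlap, against 42.5% of all genes. GINS2, of the replicative helicase complex, went from 8.78, 9.69 and 9.72 to 5.87, 5.85 and 5.91 (-3.52, SE 0.27), although its other probe sets differed by -0.03 and -0.86. POLE2, a subunit of DNA polymerase epsilon, fell by 3.06 (SE 0.30). MCM5, of the helicase ring, fell by 2.98 (SE 0.26), and TYMS, thymidylate synthase, went from 12.53, 12.82 and 12.94 to 10.09, 9.94 and 10.04 (-2.74, SE 0.15). Among 6 inhibitors of cyclin-dependent kinases 2 rose and 2 fell. CDKN1A, which encodes p21, rose from 6.60, 7.33 and 6.97 to 10.35, 11.28 and 11.28 (4.0, SE 0.25), and CDKN2B, p15, by 2.93 (SE 0.29). CDKN1B fell by 0.96 (SE 0.16) and CDKN2A by 0.52 (SE 0.12). Of these inhibitors 1 rose without shared-sequence probe sets, and 1 fell without replicate 2 of all groups.

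The growth programme fell too. Of 23 genes of MYC and ribosome biogenesis 16 fell and 2 rose, with a median of -0.79. MYC, the growth regulator, went from 11.23, 11.83 and 12.07 to 10.20, 9.82 and 9.94 (-1.72, SE 0.24). Its target ODC1, which makes polyamines, fell by 1.84 (SE 0.18), and the nucleolar genes NOP16 and NOLC1 fell by 1.58 (SE 0.20) and 1.49 (SE 0.16). The genes that rose were MXD1 (1.84, SE 0.17) and MNT (0.71, SE 0.15), both of which compete with MYC for its partner MAX. Of 24 genes of the mitochondrial ribosome and translation 21 fell, with a median of -0.81. LARS2, a mitochondrial leucyl-tRNA synthetase, fell by 1.29 (SE 0.13), the ribosomal subunits MRPL16 and MRPL12 by 1.26 (SE 0.17) and 1.13 (SE 0.14), and the elongation factor TUFM by 1.14 (SE 0.15). Of 22 respiratory chain genes 10 fell and the median was -0.23. NDUFS3, NDUFA9 and NDUFA8 of complex I fell by 0.88, 0.88 and 0.76, and CYC1 of complex III by 0.80. In none of these 22 did a rise pass the test, although 1 did without shared-sequence probe sets. Glycolysis and hypoxia genes were divided, with 7 of 24 up and 5 down and a median of -0.02. The glucose transporter gene SLC2A3 rose by 3.52 (SE 0.19), the peptide hormone gene ADM by 1.96 (SE 0.23) and NDRG1 by 1.73 (SE 0.15), while the glycolytic enzymes ENO1 and TPI1 fell by 0.77 (SE 0.18) and 0.75 (SE 0.19). Without shared-sequence probe sets 4 genes of this list rose and 2 fell, and 2 and 3 fell without replicate 2 or 3 of all groups. HK3, a hexokinase, rose by 1.19 (SE 0.43, adjusted p = 0.0476) with groups that overlapped. HK3 lost its call with median centring, with the mean of its probe sets and with a trended, robust prior (adjusted p = 0.0508, 0.0577 and 0.091), and also without any 1 of 8 arrays. Its difference was then 0.89 (adjusted p = 0.19) without PMA with doxycycline replicate 2 and 0.98 (0.165) without its replicate 3, 1.06 (0.133) and 1.08 (0.138) without vehicle with doxycycline replicates 1 and 3, and 1.19 (0.0537 to 0.0626) without PMA replicate 3 or any 1 of the vehicle arrays, which have no doxycycline.

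The list of granule and progenitor genes had 11 of 14 members that fell and 0 that rose, with a median of -2.73. Beside the proteases above, AZU1, azurocidin, fell by 3.29 (SE 0.23). MYB, the transcription factor of immature blood cells, fell by 3.31 (SE 0.26), and GFI1, a repressor of granulocyte progenitors, by 2.18 (SE 0.19). These 3 were picked for their roles with their values known. CD34, KIT and MPO were not called.

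The receptors and adhesion molecules of macrophages rose. Of 23 monocyte and macrophage markers 16 rose and 0 fell, with a median of 2.09. CHIT1, the chitinase of activated macrophages, went from 4.22, 4.29 and 4.59 to 9.38, 11.18 and 11.14 (6.20, SE 0.50). ITGAX, the integrin CD11c, went from 6.61, 6.33 and 6.69 to 11.23, 11.68 and 11.83 (5.04, SE 0.17). CD86, a costimulator of T cells, rose from 4.92, 4.92 and 4.79 to 8.94, 10.02 and 10.12 (4.82, SE 0.26). ITGAM, the integrin CD11b, rose by 4.77 (SE 0.22) on the probe set used, while its other, dimmer one differed by 0.10. The median difference of the 23 genes was 1.56 on replicate 1 of PMA with doxycycline and 2.29 and 2.27 on the others. Not all macrophage genes took part, since MRC1, the mannose receptor, differed by 0.14 at the bottom of the signal range and LYZ, lysozyme, by -0.33 (adjusted p = 0.308).

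Phagocyte pattern receptors rose in 15 of 25 genes and fell in 0, with a median of 0.68. TREM1, an amplifier of inflammation, went from 4.31, 4.64 and 4.73 to 8.84, 10.64 and 10.74 (5.52, SE 0.50). C5AR1, the receptor of complement fragment C5a, rose by 5.02 (SE 0.22), and TYROBP, the signalling partner of TREM receptors, by 3.30 (SE 0.13). TLR1, which senses bacterial lipopeptides, rose by 2.95 (SE 0.13), while TLR4, the lipopolysaccharide receptor, differed by -0.18 (adjusted p = 0.707). Of 6 subunits of the phagocyte NADPH oxidase 4 rose, with a median of 0.91. The cytosolic subunit NCF1 rose by 4.0 (SE 0.32), the membrane subunit CYBB by 3.07 (SE 0.57), the small GTPase RAC2 by 1.34 (SE 0.14) and NCF4 by 0.48 (SE 0.14). NCF1 shares sequence with near-identical copies, so its signal may include theirs, and 0 members rose without shared-sequence probe sets. CYBB went from 6.04, 8.28 and 8.49 to 10.07, 10.99 and 10.98, with replicate 1 lowest in both groups. NCF4 lost its call without PMA with doxycycline replicate 3 (0.36, adjusted p = 0.0908) and without vehicle with doxycycline replicate 1 (0.35, adjusted p = 0.0836).

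Secreted mediators rose in 18 of 29 chemokine and cytokine genes and fell in 0, with a median of 1.08. CXCL8, the neutrophil attractant interleukin 8, went from 5.06, 6.47 and 7.15 to 11.19, 12.07 and 12.30 (5.63, SE 0.49). CCL2, which attracts monocytes, was at 5.28, 7.16 and 7.58 in vehicle with doxycycline and at 10.24, 12.24 and 12.34 in PMA with doxycycline, with replicate 1 lowest in both groups. It rose by 4.93 (SE 0.64, adjusted p = 3.22e-05 by limma), and by 5.92 without doxycycline. The 2 rises of CCL2 differed by -0.99, with an unadjusted interaction p of 0.297. CCL7, a relative of CCL2, rose by 3.77 (SE 0.63), and IL1RN, the natural antagonist of interleukin 1, by 3.44 (SE 0.42). The other probe sets of IL1RN differed by 0.12 to 1.84. Without probe sets of shared sequence 10 genes of the list rose. Interleukin 6, by the gene IL6, was at the bottom of the signal range in both groups, with a difference of -0.0097.

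Genes that act on matrix and shape rose in part. Of 28 genes of proteases, adhesion and matrix 17 rose and 1 fell, with a median of 1.10. After SPP1 and MMP1 came PLAUR, the urokinase receptor, from 8.30, 9.04 and 8.71 to 13.24, 13.79 and 13.76 (4.91, SE 0.23), and MMP9, gelatinase B, from 5.88, 6.38 and 5.83 to 9.76, 10.54 and 10.57 (4.26, SE 0.31). VCAN, a matrix proteoglycan, fell by 0.61 (SE 0.15) among dim signals. Of 26 actin cytoskeleton genes 8 rose and 3 fell, with a median of 0.02. Without replicate 3 of all groups 5 rose, and with the replicate block 5 fell. GSN, the filament-severing protein gelsolin, rose by 3.76 (SE 0.36). LMNA, a nuclear lamin, rose by 1.90 (SE 0.37), VIM, vimentin, by 1.81 (SE 0.13), and the tropomyosin TPM4 by 1.41 (SE 0.14). CORO1A, an actin regulator of leukocytes, fell by 1.46 (SE 0.24), and PFN1, profilin, by 1.25 (SE 0.35). PFN1 lost its call without PMA with doxycycline replicate 1 (-0.93, adjusted p = 0.0583) and without vehicle with doxycycline replicate 2 (-0.98, adjusted p = 0.0716). Of 2 genes often used as references, ACTB differed by -0.52 (SE 0.20, adjusted p = 0.06) and GAPDH by -0.07 (SE 0.10). ACTB was called, in the same direction, without any 1 of 4 arrays, with adjusted p-values of 0.035 to 0.0494. Of 12 osteoclast and fusion genes 6 rose and 0 fell, with a median of 0.40. DCSTAMP, a protein needed for cell fusion, went from 4.98, 4.96 and 4.92 to 10.00, 10.99 and 11.13 (5.75, SE 0.24), and SIRPA, the receptor of CD47, rose by 1.91 (SE 0.11). CTSK, an osteoclast protease, rose by 0.97 (SE 0.20). Without probe sets of shared sequence 2 of these 12 rose.

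**Figure D2:**
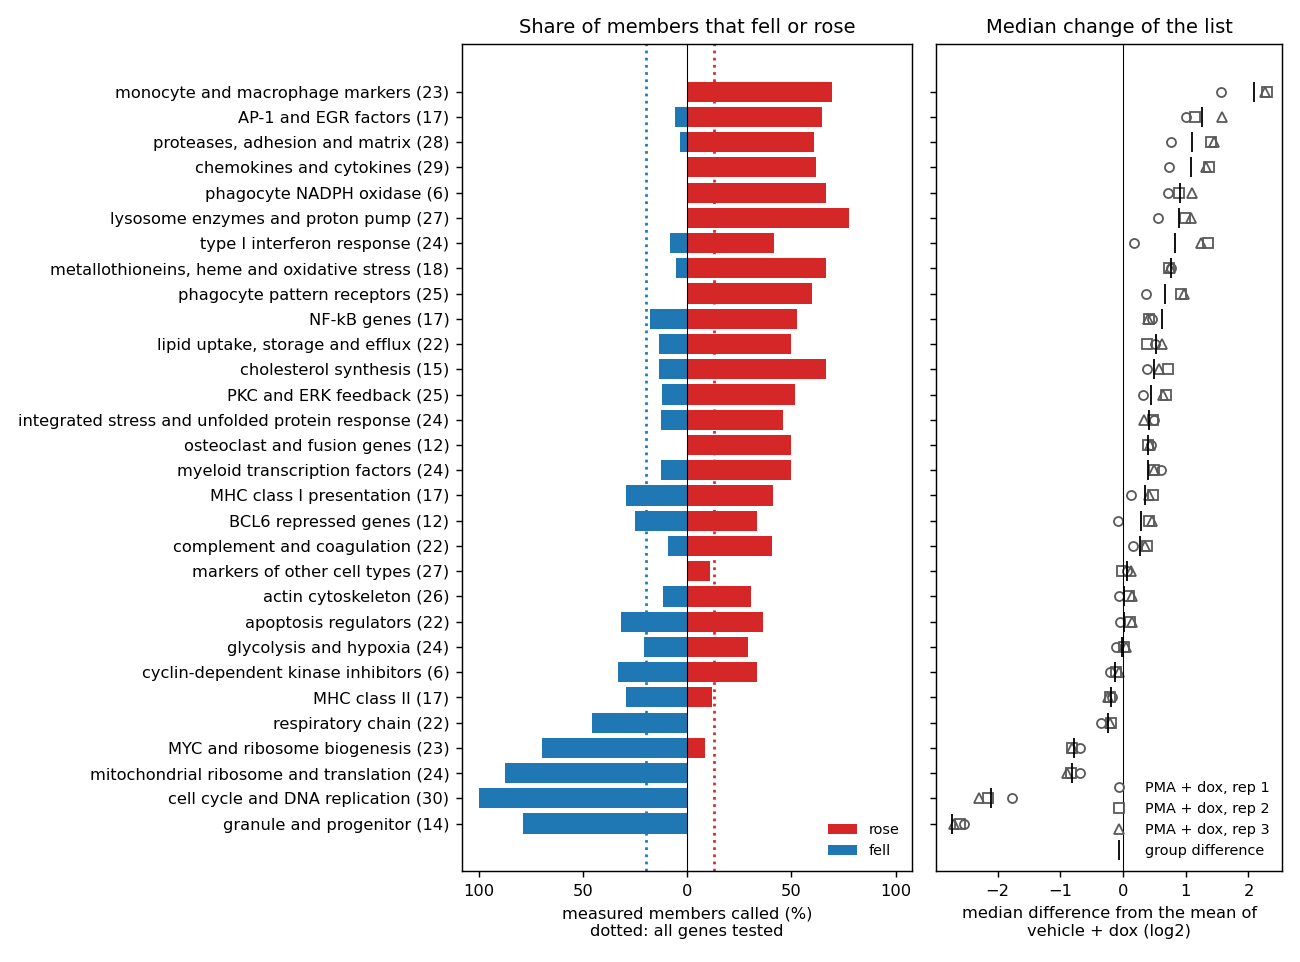
Left, the percentage of the measured members of each of 30 gene lists that rose (red) or fell (blue) with PMA under doxycycline, with the number measured in brackets and dotted lines at 13% and 19.5%, the shares over all genes. Right, the median log2 difference of each list for each PMA array from the vehicle mean and for the groups. In the macrophage, chemokine and interferon lists replicate 1 lies closest to 0, at 1.56, 0.73 and 0.18. Other lists have the same order, such as cell cycle (-1.77), pattern receptors (0.37) and lysosome (0.55). Not all do, since in myeloid transcription factors replicate 1 lies farthest from 0, at 0.60.

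Of 27 genes of lysosome enzymes and the proton pump 21 rose and 0 fell, with a median of 0.89. Without replicate 3 of all groups 12 rose. ATP6V0D2, a pump subunit of macrophages and osteoclasts, rose from 5.54, 5.16 and 5.43 to 10.65, 10.43 and 10.22 (5.06, SE 0.13). NPC1, which exports cholesterol from lysosomes, rose by 2.52 (SE 0.13), and the proteases CTSB and CTSH by 2.20 (SE 0.16) and 2.19 (SE 0.13). Of 22 genes of lipid uptake, storage and efflux 11 rose and 3 fell, with a median of 0.52. Next to FABP4, the cholesterol exporter ABCA1 rose by 3.44 (SE 0.24), the scavenger receptor genes CD36 and OLR1 rose by 3.28 (SE 0.51) and 3.12 (SE 0.19), CPT1A, the gate of fatty acid oxidation, fell by 1.66 (SE 0.10), and PLTP, a phospholipid carrier, fell by 0.90 (SE 0.18). Without shared-sequence probe sets 1 member fell. Of 15 cholesterol synthesis genes 10 rose and 2 fell, with a median of 0.48. Without replicate 3 of all groups 5 rose and 1 fell. MSMO1 (1.90, SE 0.18), SC5D (1.73, SE 0.18) and SQLE (1.59, SE 0.19), enzymes of the late pathway, rose, as did the sterol carrier STARD4 (1.57, SE 0.16). The enzymes PMVK and LSS fell by 1.35 (SE 0.14) and 0.52 (SE 0.13), and by the mean of its probe sets LSS differed by -0.13.

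Of 18 genes of metallothioneins, heme and oxidative stress 12 rose and 1 fell, with a median of 0.77. SLC7A11, the cystine importer, rose by 1.94 (SE 0.21), SRXN1, which repairs peroxiredoxins, by 1.90 (SE 0.16), and the metal-binding proteins MT1X and MT2A by 1.82 (SE 0.14) and 1.49 (SE 0.13). SLC40A1, the iron exporter ferroportin, fell from 8.09, 7.36 and 7.45 to 4.51, 4.32 and 4.10 (-3.33, SE 0.18). Metallothionein genes resemble each other closely, and 5 members of the list rose without probe sets of shared sequence. Of 24 genes of the integrated stress and unfolded protein response 11 rose and 3 fell, with a median of 0.42. Besides GDF15, the chaperone partner DNAJB9 rose by 2.37 (SE 0.11), PPP1R15A, which restores translation, by 1.86 (SE 0.14), and ATF5 by 1.49 (SE 0.14). PHGDH, an enzyme of serine synthesis, fell by 1.55 (SE 0.19), and SHMT2, which converts serine to glycine in mitochondria, by 1.01 (SE 0.14). Apoptosis regulators were divided, with 8 of 22 up, 7 down and a median of 0.01. Without shared-sequence probe sets 4 fell. BCL2A1, XIAP (1.64, SE 0.13), CFLAR (1.05, SE 0.20) and the death receptor gene TNFRSF10B (1.21, SE 0.12) rose. BCL2, a survival protein, fell by 1.71 (SE 0.19) and the death receptor gene FAS by 1.57 (SE 0.17). The signs of FAS agreed over 4 of its probe sets, and the remaining dim one differed by 0.03.

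Of 22 complement and coagulation genes 9 rose and 2 fell, with a median of 0.26. A2M, a broad protease inhibitor, went from 3.42, 4.08 and 4.0 to 10.11, 10.66 and 10.65 (6.64, SE 0.20), and C3, the central complement protein, from 6.61, 7.26 and 7.18 to 11.85, 12.16 and 12.31 (5.09, SE 0.23). THBD, thrombomodulin, rose by 2.46 (SE 0.25). F13A1, a subunit of the fibrin cross-linking factor, fell by 1.84 (SE 0.31) and C5 by 1.36 (SE 0.17). VSIG4, a complement receptor of tissue macrophages, was at 4.56, 4.71 and 4.67 in vehicle with doxycycline and at 5.22, 8.26 and 8.27 in PMA with doxycycline (2.60, SE 0.77, adjusted p = 0.0174). Replicate 1 thus hardly left the vehicle range. VSIG4 differed by 2.10 (adjusted p = 0.083) without PMA with doxycycline replicate 2 and by 2.09 (0.0836) without its replicate 3. With a trended, robust prior VSIG4 also lost its call (adjusted p = 0.075). Without replicate 1 of all groups it rose by 3.57, and 13 of the 22 genes rose.

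Of 17 MHC class II genes 2 rose and 5 fell, with a median of -0.20. Without shared-sequence probe sets 0 rose, and without replicate 2 of all groups 3 fell. HLA-DMA, which loads peptides, rose by 1.44 (SE 0.16) and HLA-DRB1 by 0.74 (SE 0.15). The regulators RFXAP, RFX5, NFYB and RFXANK, which bind class II promoters, fell by 1.74 (SE 0.17), 1.42 (SE 0.10), 0.99 (SE 0.11) and 0.58 (SE 0.12). Of 17 genes of MHC class I presentation 7 rose and 5 fell, with a median of 0.35. After cyclic loess scaling 11 rose and 3 fell, and without shared-sequence probe sets 2 fell. ERAP1, which trims peptides, rose by 1.63 (SE 0.20), HLA-E by 1.14 (SE 0.18) and TAPBP by 0.65 (SE 0.21). TAP2, a peptide transporter, fell by 0.98 (SE 0.28), NLRC5, an activator of class I genes, by 0.83 (SE 0.19), and the proteasome subunit PSMB8 by 0.73 (SE 0.12). This list leaned on single arrays. TAP2 lost its call without PMA with doxycycline replicate 1 (-0.66, adjusted p = 0.0692) and without vehicle with doxycycline replicate 2 (-0.90, 0.0593) or 3 (-0.84, 0.0712). TAPBP lost its call without PMA with doxycycline replicate 2 (0.51, adjusted p = 0.132) or 3 (0.55, 0.114) and without vehicle with doxycycline replicate 1 (0.60, 0.0834) or 3 (0.61, 0.089). The class I genes that fell numbered 2 to 3 in 8 of the 12 fits that left out 1 array (without PMA replicate 2, vehicle replicate 2 or 3, PMA with doxycycline replicate 1 or 2, or any 1 of the vehicle with doxycycline arrays). Those that rose numbered 4 without PMA with doxycycline replicate 2 or 3 or vehicle with doxycycline replicate 3. Without replicate 1, 2 or 3 of all groups 9, 4 and 2 rose and 3, 2 and 2 fell.

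Type I interferon response genes separated the cultures from each other. Over the 24 genes measured the mean signal was 6.18, 6.16 and 6.12 in vehicle with doxycycline and 6.24, 7.81 and 7.78 in PMA with doxycycline. Replicate 1 was thus close to the vehicle arrays, and replicates 2 and 3 were well above them. The same split appeared in PMA without doxycycline, at 6.17, 7.83 and 8.03. IFIT3, an RNA-binding antiviral protein, was at 6.07, 6.42 and 6.46 in vehicle and at 6.98, 10.38 and 10.37 in PMA with doxycycline, and IFIT2 at 4.01, 4.26 and 4.32 against 4.66, 8.17 and 7.94. ISG15, a ubiquitin-like protein picked after its values were seen, was at 8.51, 8.73 and 8.57 against 8.91, 11.19 and 11.16. IFIT1, picked likewise, was at 6.84, 6.11 and 6.21 against 4.51, 9.39 and 9.35, so that replicate 1 lay below vehicle and the others above. In some genes replicate 1 also stood well above vehicle, yet below replicates 2 and 3. OAS1, an antiviral RNA sensor, rose from 4.35, 4.89 and 4.8 to 7.45, 9.50 and 9.56 (4.15, SE 0.52), and IFI6 from 8.84, 8.71 and 8.64 to 11.08, 12.60 and 12.53 (3.34, SE 0.43). IFITM1 and IFITM3, which block virus entry, fell by 1.42 (SE 0.42) and 1.05 (SE 0.16).

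With all arrays 10 of the 24 interferon genes rose and 2 fell, with a median of 0.83. Without replicate 1 of all groups 18 rose, and without PMA with doxycycline replicate 2 or 3 only 5 and 6 did. Leaving out vehicle with doxycycline replicate 2 or 3 left 6 in each case. Without replicate 2 or 3 of all groups 4 and 3 rose. With a trended, robust prior 6 rose, and IFIT2 and IFIT3 lost their calls (adjusted p = 0.107 and 0.0711 by limma). IFIT2 and IFIT3 rose by 2.73 (SE 0.90, adjusted p = 0.0304) and 2.93 (SE 0.85, adjusted p = 0.0159). Without PMA with doxycycline replicate 2 they differed by 2.10 and 2.36, with adjusted p-values of 0.134 and 0.0775, and without its replicate 3 by 2.22 and 2.36, with 0.124 and 0.0772. IFIT2 also lost its call without any 1 of the vehicle with doxycycline arrays (2.63 to 2.79, adjusted p = 0.0678 to 0.0741). IFITM1 differed by -0.85 (adjusted p = 0.0674) without PMA with doxycycline replicate 1. The 3' to 5' gap of ACTB was also highest on replicate 1 of every group, with or without doxycycline, and its part in this split was not tested.

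**Figure D3:**
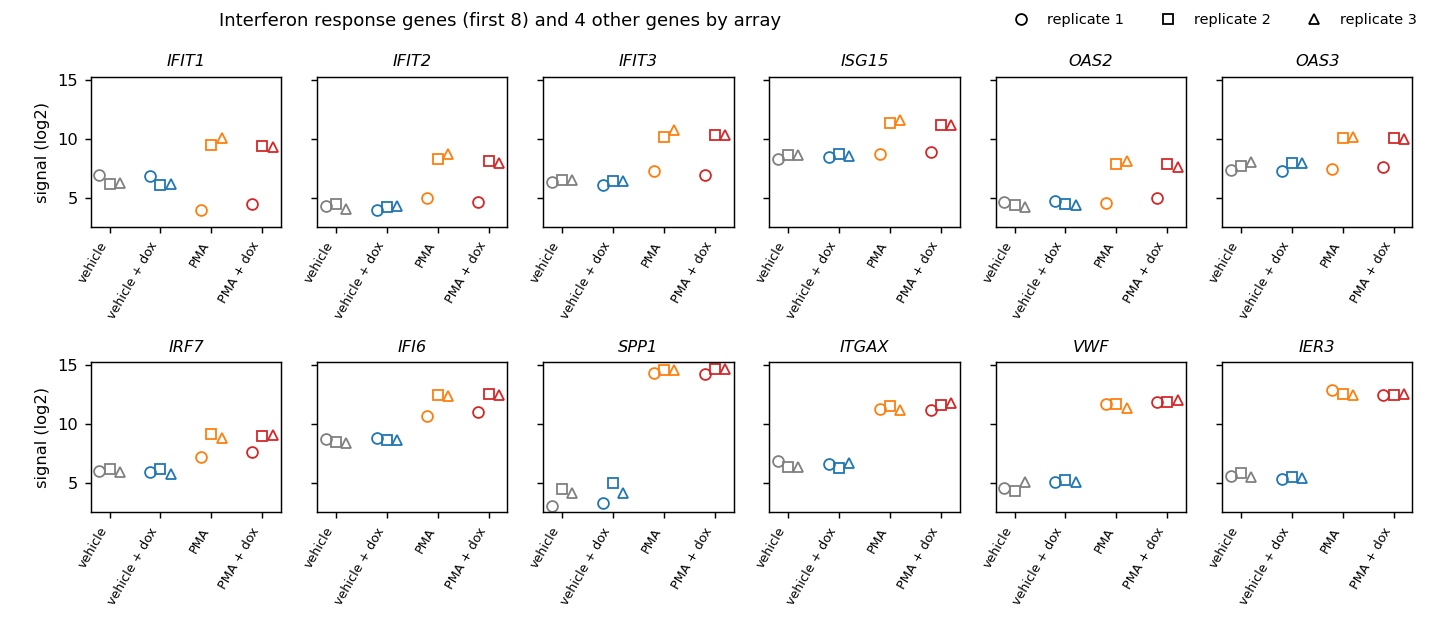
Log2 signal on all 12 arrays, by group, for 8 interferon response genes and, as contrast, SPP1, ITGAX, VWF and IER3, with the symbol giving the replicate number. Replicates 2 and 3 of both PMA groups stand above replicate 1 in the interferon genes, whereas in the last 4 genes all PMA arrays stand together above vehicle.

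Markers of other cell types were mostly flat. Of 27 markers of lymphoid, erythroid, platelet, mast, epithelial, fibroblast, endothelial and liver cells 3 rose and 0 fell, with a median of 0.06. The share that rose, 11.1%, was near the 13% of all genes, while 19.5% of all genes fell. Many were not dim, since 13 of them lay above the median of all probe sets in vehicle with doxycycline and 14 in PMA with doxycycline. The endothelial genes VWF and PECAM1 rose, PECAM1 from 9.63, 9.14 and 9.09 to 12.57, 12.41 and 12.43 (3.18, SE 0.15), and the mast cell tryptase gene TPSAB1 rose by 3.21 (SE 0.22). The endothelial markers CDH5 and KDR and the mast cell marker CPA3 lay below the median in both groups and were not called. VWF rested on 1 of its probe sets, the other differing by 0.15.

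Whether the hairpin altered the response was asked by setting this PMA effect against that without doxycycline. In limma's test of the difference of the 2 effects 0 of 19775 genes passed, 518 had an unadjusted p under 0.05, 2.62% of all, and the smallest adjusted p was 0.133. This fit had no replicate block, although same-numbered arrays deviated together within each agent, with correlations of 0.25 to 0.64. With a block for these pairs 1284 genes had an unadjusted p under 0.05, and 1, HES1, passed. A block for replicate numbers gave 797 and 1. The share of 2.62% thus depends on leaving the block out, and the other counts and intervals given here come from the same fit without it. The 95% interval of the difference lay within 1 log2 unit on either side of 0 for 18879 genes, 95.5%, and for 5905, 91.9%, of the genes that PMA changed with doxycycline. In the remaining genes a difference of more than 1 unit was not excluded with this number of arrays. The interval of HES1, given below, lay wholly above 1 unit. Without doxycycline PMA changed 6260 genes, 31.7%, of which 2518 rose, 12.7%, and 3742 fell, 18.9%. Called in the same direction in both settings were 5426 genes. Genes called in both, in either direction, made up 84.5% of those called with doxycycline and 86.7% of those called without. Another 999 were called only with doxycycline, of which 936 had the same sign without it and 105 had an unadjusted interaction p under 0.05. LINC01350, a dim non-coding RNA gene, was the 1 gene called in opposite directions (-0.38 with and 0.41 without doxycycline). Its adjusted interaction p was 0.821, and its call with doxycycline was lost without PMA with doxycycline replicate 2 (-0.33, adjusted p = 0.0821) or vehicle with doxycycline replicate 2 or 3 (-0.32 and -0.37, adjusted p = 0.0862 and 0.0557). Across genes, which are not independent replicates, the effects correlated at a Pearson r of 0.965 and a Spearman rho of 0.84.

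HES1, a repressor driven by Notch signalling, differed most between the settings. Its signal was 4.29, 4.28 and 4.50 in vehicle with doxycycline and 9.63, 9.25 and 9.20 in PMA with doxycycline, a rise of 5.0 (SE 0.18). Without doxycycline it was 4.76, 4.42 and 4.78 in vehicle and 8.29, 7.58 and 7.77 in PMA, a rise of 3.23. The difference of the rises was 1.78, with a 95% interval from 1.23 to 2.32 and an adjusted p of 0.133 by limma. With PMA every array with doxycycline lay above every array without. With vehicle the arrays with doxycycline had the lower mean, and the groups overlapped. Same-numbered arrays with and without doxycycline deviated together within each agent. In fits with a replicate block, HES1 passed as the 1 gene called, with an adjusted p of 0.00328 for a block of 6 pairs and 0.0269 for a block of 3 numbers. It was also the 1 gene called without PMA replicate 1 (difference 1.98, adjusted p = 0.00672). Fitted without replicate 1 of all groups the same model called 0 genes, and its smallest adjusted p was 0.0538. Every other fit also called 0 genes. The smallest adjusted p was 0.0895 with a trended, robust prior, 0.126 with median centring and 0.131 with cyclic loess scaling. It was 0.612 and 0.734 without vehicle replicate 1 or 3, and 0.723 without PMA replicate 3. Without replicate 2 or 3 of all groups, or with the mean of the probe sets, it was 0.9998 or 0.9999. Another probe set of HES1 rose by 3.11 with PMA and doxycycline, and the dim remaining one differed by 0.12.

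The other 7 genes with the smallest interaction p did not pass the adjusted test. MYCL, a relative of MYC, rose by 1.32 with doxycycline and by 0.35 without (difference 0.97, 95% interval 0.60 to 1.33). GRHL1, a factor of epithelial genes, rose by 1.22 with doxycycline and differed by -0.12 without (1.34, interval 0.78 to 1.89). HES4, a relative of HES1, rose by 1.35 against a difference of 0.38 without (0.97, interval 0.54 to 1.39), and KIAA1671 by 2.57 against 1.40 (1.18, interval 0.66 to 1.70). Less negative with doxycycline were the differences of C11orf96, at -0.45 with and -1.78 without it, and of CTHRC1, a secreted matrix protein, at -0.26 and -1.17. Among list members PTX3 fell by 0.98 with and 2.05 without doxycycline, DUSP5 rose by 5.16 and 3.94, PRDM1 by 2.67 and 1.70, and VIM by 1.81 and 2.46. Each of these 4 had an unadjusted interaction p under 0.05 and did not pass the adjusted test. They are only a part of the list members with such a p. In the lists they come from it was found in 4 of 17 NF-kB genes, 2 of 25 protein kinase C and ERK genes, 2 of 24 myeloid factors and 1 of 26 actin genes. It was found in 0 of 30 cell cycle genes and 0 of 23 macrophage markers, and in 2.62% of all genes. These counts are from the fit without a replicate block, and more genes had such a p with one. Of the 3325 genes that fell in both settings 2164 had the larger fall with doxycycline, by a median difference of -0.06, and of the 2101 that rose in both 1095 had the larger rise, by 0.01.

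**Figure D4:**
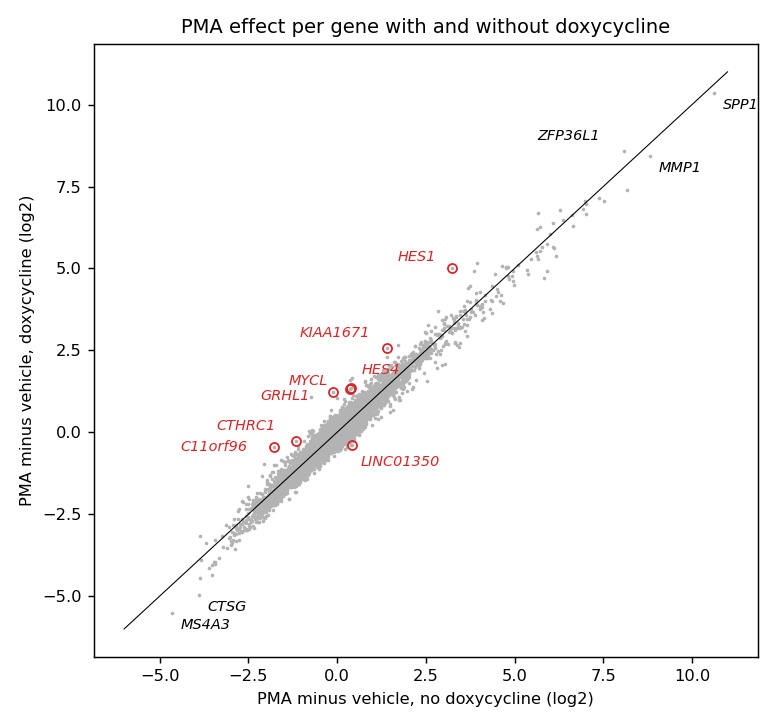
Log2 difference of PMA from vehicle for each of 19775 genes without doxycycline (horizontal axis) and with doxycycline (vertical axis), with the line of equality and the 8 genes of smallest interaction p circled in red. The points lie along the line, and HES1 lies farthest above it among the circled genes.

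The lists gave these counts without doxycycline. All 30 cell cycle genes and 11 of 14 granule and progenitor genes fell there too, with medians of -2.03 and -2.49. Macrophage markers rose in 17 of 23 with a median of 2.04, chemokines and cytokines in 20 of 29 with 1.24, pattern receptors in 14 of 25 with 1.14 and interferon genes in 11 of 24 with 1.06. MHC class I presentation had 7 genes that rose in either setting, and 5 that fell with doxycycline against 2 without, with the same call in both for 7 of 17. Respiratory chain genes fell in 10 against 8, cyclin-dependent kinase inhibitors in 2 against 1, and cholesterol synthesis genes rose in 10 against 8 and proteases, adhesion and matrix genes in 17 against 20. No list was tested for a difference between the settings, and none of its members passed the interaction test.

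Short stretches of promoter show which known sites lie before the genes that moved. RefSeq promoter windows of GRCh38.p14, 250 bases before to 50 after the start, were matched for 15382 of the 19775 genes, 21485 windows in all, since some genes have several starts. AP-1 sites include the DNA element first known for its response to phorbol esters. The pattern searched here, TGANTCA on either strand with any base as N, is broader than that element. It was present in 6.23% of all windows, in 10.3% of the 320 windows of genes that rose by 2 or more, and in 3.53% of the 312 windows of genes that fell by 2 or more. Sites before genes with large rises are shown 5' to 3' on the gene's strand, with the site in capitals.
EMP1, chr12:13196541-13196567, plus strand: tctgtgtgtcTGAGTCAgagagagcct
EMP1, chr12:13196668-13196694, plus strand: aaagccagacTGATTCAtagaaactcc
CXCL8, chr4:73740422-73740448, plus strand: ggaagtgtgaTGACTCAggtttgccct
TDO2, chr4:155903446-155903468, plus strand: ctctgtTGATTCAttggatgttt
The sites begin 175 and 48 bases before the start of EMP1, 137 before that of CXCL8 and 244 before that of TDO2. EMP1 therefore has a pair of matches to the pattern in 1 window, TGAGTCA and TGATTCA.

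E2F factors time the genes of DNA replication, and their site was searched as TTTCCCGC or TTTGGCGC on either strand. It was present in 2.78% of all windows, in 33.3% of the 30 windows of the cell cycle list, in 8.97% of those of genes that fell by 2 or more and in 0.625% of those of genes that rose by 2 or more. In the stretches below, from replication genes that fell, the capitals read TTTCCCGC or, where the site lies on the other strand, GCGGGAAA.
GINS2, chr16:85688968-85688995, minus strand: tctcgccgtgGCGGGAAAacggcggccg
TYMS, chr18:657604-657631, plus strand: cgggacggccGCGGGAAAaggcgcgcgg
PCNA, chr20:5126664-5126691, minus strand: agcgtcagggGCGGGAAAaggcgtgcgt
CDT1, chr16:88803744-88803771, plus strand: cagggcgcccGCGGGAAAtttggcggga
MCM3, chr6:52284899-52284926, minus strand: ggatggtacgTTTCCCGCcaccgcgggg
They begin 31, 39, 59, 35 and 174 bases before the start. PCNA, the clamp of DNA polymerase, fell by 1.72 (SE 0.15), the replication licensing factor CDT1 by 1.98 (SE 0.22) and MCM3 by 2.58 (SE 0.28). The CHR element, TTTGAA on either strand, marks genes of mitosis. It was in 30% of the cell cycle windows, as in CDC20, an activator of the anaphase-promoting complex (fell by 2.20, SE 0.26), and BUB1B, a spindle checkpoint kinase (fell by 2.15, SE 0.19).
CDC20, chr1:43358906-43358931, plus strand: acggttggatTTTGAAggagccaata
BUB1B, chr15:40161036-40161061, plus strand: gaccgttaaaTTTGAAacttggcggc
These begin 65 and 23 bases before the start. The same letters were in 12.3% of all windows and also in 32% of the 50 windows of genes that rose by 4 or more, whose median GC content was 53% against 62.7% over all windows. The part of base composition in these shares was not tested. The EGR site, GCGNGGGCG, was in 12.4% of all windows, 11.9% of those of genes that rose by 2 or more and 9.29% of those of genes that fell by 2 or more, and in 8% of those of genes that rose by 4 or more. An NF-kB consensus, searched likewise, was in 2.04%, 1.88%, 1.92% and 4% of the same windows. An AP-1 and a CHR match can share bases, which was not counted, and a match describes the letters only.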

How the data were processed

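The deposited values are log2 signals made by the authors with RMA, per the submitters' processing notes. Its version is "not given in the sources used here". Values were taken unaltered, and 0 were missing. The 54675 probe sets included 62 controls. By the platform annotation, 41091 had a single symbol, 1801 had more than 1 and 11721 had no symbol. For 41037 symbols the name was updated through the Entrez number, and 54 kept theirs. For 5589 of the 19775 genes the probe set used has a name ending in _s_at or _x_at, which marks sequence shared between transcripts. No filter on dim genes was applied. Array medians were 5.16 to 5.22.

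The 12 arrays entered one linear model of group means in limma 3.58.1 (R 4.3.3; lmFit, then eBayes; 8 residual and 5.6 prior degrees of freedom), two-sided. Summaries used Python 3.11.15. Standard errors (SE) are limma's. An exact permutation of 3 against 3 arrays could not go below p = 0.1. The members and the 30 gene lists were chosen with earlier results of these data known. Genes were named by a rule: ZXDC, ZXDA, ZXDB and CCL2; the 12 largest rises and falls among called genes whose groups do not overlap; the 8 largest of each among those above the median of all probe sets in both groups; up to 6 called members of each list; the 8 smallest interaction p-values; ACTB and GAPDH. Others were named for their roles with their values known. Alternatives were a replicate block, other choices of probe set, scaling, filter and prior, and leaving out arrays.

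Replicate numbers were checked for pairing by the correlation of deviations from group means. It was 0.20, 0.07 and 0.06 for numbers 1 to 3 between PMA and vehicle with doxycycline, not all over the limit of 0.1, so the numbers were not taken to pair these groups. For same-numbered arrays that differed in doxycycline alone the values were 0.57, 0.25 and 0.31 in vehicle and 0.64, 0.29 and 0.32 in PMA. The fit was tested on simulated data for PMA with doxycycline over 19775 genes, where it called 22% of genes raised by 0.5, 78% of those raised by 1, 84% of those lowered by 1 and 100% of those raised by 2, and 0.036% of 19575 unchanged genes. Only 200 genes were changed there, with noise independent between arrays. In the data 6426 genes were called and same-numbered arrays deviated together, so these shares need not hold for the data.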

Additional observations from a re-analysis of the deposited data

How the results depend on the processing

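The count of 6426 genes changed by PMA with doxycycline lay between 4905 and 7165 under other scaling, probe set, filter, prior and block choices. The lowest value came from leaving out probe sets of shared sequence, which tested 17098 genes, and the highest from the replicate block, which called 6419 of the 6426 in the same direction. Leaving out 1 array, or 1 replicate number of all groups, gave 4089 to 6998 genes, of which 1557 to 2889 rose and 2532 to 4109 fell. The lowest values came without replicate 3 of all groups, and without replicate 2 of all groups 1658 rose. The test of the difference between the PMA effects called 0 genes in most settings and 1, HES1, with the replicate block over numbers, with the replicate block by pairs and without PMA replicate 1. The range over left-out arrays was 0 to 1. The change of ZXDC with doxycycline was -0.50 (replicate block by exchange within pairs p = 0.0312), and -0.39, -0.54 and -0.56 without replicate 1, 2 or 3 of all groups, where exact permutation gave p = 0.0556 each time, the lowest it can reach. In the other ZXDC probe sets it was -0.63, -0.29 and -0.25 with an exact permutation p of 0.005, 0.01 and 0.005, and -0.33 and -0.30 with 0.135 and 0.105. FAS was 0.028 (adjusted p = 0.928 by limma) without probe sets of shared sequence, against -1.57. Among the values of named genes under alternatives 3939 kept direction and call, 75 in 23 genes lost the call, 9 in 2 genes gained it and 1 reversed. Among list counts 1300 stayed within 1.5 times and 80 did not. The replicate block changed the call of ACTB (-0.52, adjusted p = 0.00637) among the named genes. Of other probe sets of called genes 83.2% had the sign of the one used. The number of arrays limits the precision, and dim genes have poorly measured fold sizes.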
